A study of Sus scrofa with 3 samples.

Results

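The 5 microRNA (miRNA) precursors miR-140, miR-331, miR-361, miR-455 and miR-542 were examined in pig liver for the balance between the miRNAs cut from their 5′ and 3′ arms. Their 10 mature miRNAs, the 5p and 3p arm of each, are 10 of the 411 mature names counted in each library (ssc-miR-140-5p and ssc-miR-140-3p, ssc-miR-331-5p and ssc-miR-331-3p, ssc-miR-361-5p and ssc-miR-361-3p, ssc-miR-455-5p and ssc-miR-455-3p, ssc-miR-542-5p and ssc-miR-542-3p). The species prefix ssc is left off below. The precursors were chosen from the data because their 5p share, the 5p reads as a percentage of 5p plus 3p reads, differed between the libraries. The shares and the arm levels behind them are therefore a description of these libraries and support no test.

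Liver small RNA of males aged 90 days after birth was sequenced, with 1 library for the Enshi black pig, 1 for the Large White pig and 1 for the Chinese wild boar. The Enshi black is a Chinese domestic breed and the Large White a European commercial breed. The labels give no treatment or genetic change. They mention 3 male pigs and 3 liver samples in all and do not state which animals each library holds, so breed cannot be told apart from the individual animal or the library. The deposited counts summed to between 7350179 and 7837309 reads per library. Hepatocyte markers were abundant in all 3 libraries: the sum of miR-122, miR-192, miR-194a and miR-885-5p was 341596 CPM in Enshi black, 657125 in Large White and 439702 in wild boar liver. CPM are counts per 1000000 reads of a library scaled by the trimmed mean of M-values (TMM), so they need not sum to that figure.

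A miRNA precursor is a short hairpin, and the enzyme Dicer cuts it into a duplex with 1 strand from each arm. An Argonaute protein keeps 1 strand of the duplex as the guide that finds target mRNAs, and the other is usually degraded. The relative stability of the duplex ends and the first base of each strand are known to bear on that choice. The arms of a hairpin carry different seeds and so have different targets, which is why the arm balance matters as well as the level of the precursor.

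The 3p arm was the more abundant one for miR-140, miR-331 and miR-455 in every library, and the 5p arm for miR-361. miR-542 was the member nearest to equal arms, in wild boar liver. By read share, no member had its major arm exchanged between libraries. Wild boar liver had the lowest 5p share of miR-140, miR-331 and miR-455, and Large White liver the lowest of miR-361 and miR-542. The Enshi black share lay between the other two for all 5 members. The same held for 25 of the other 57 precursors (43.9%) that had both arms named and no fewer than 100 reads over the 2 arms in any library.

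**Figure D1:**
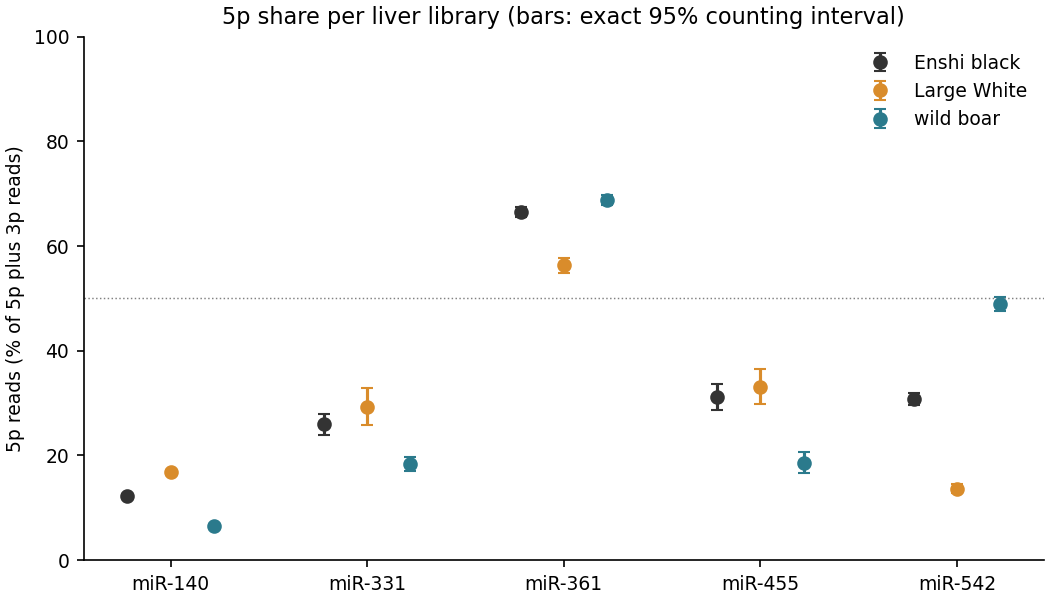
The 5p share (vertical axis, percent of 5p plus 3p reads) is plotted for each member precursor in each library, with 95% intervals (exact, Clopper-Pearson) that cover counting error only. miR-542 runs from 13.6% in Large White to 49.0% in wild boar liver, while miR-140 stays between 6.53% and 16.8%.

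miR-542 lies in a cluster of miRNA genes on the X chromosome, and its 3p arm is known for repressing survivin, an inhibitor of cell death. Its 5p share was 13.6% in Large White liver (interval 12.8 to 14.5), 30.8% in Enshi black (29.7 to 31.9) and 49.0% in wild boar (47.7 to 50.3). The 3 intervals did not overlap, and the wild boar interval included equal arms. The 5p arm stood at 150 CPM in Large White, 223 CPM in Enshi black and 320 CPM in wild boar liver. The 3p arm ran in the opposite order, at 953 CPM in Large White, 502 CPM in Enshi black and 333 CPM in wild boar liver. Both arms thus moved, in opposite directions.

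From Large White to wild boar, miR-542-5p was 2.13-fold higher (1.97 to 2.30) and miR-542-3p 2.86-fold lower (2.73 to 2.997). The ratio of 5p to 3p reads, which needs no scaling between libraries, was 6.09-fold higher in wild boar liver (5.56 to 6.67). It was 2.82-fold higher in Enshi black than in Large White liver (2.58 to 3.09). It was also 2.16-fold lower in Enshi black than in wild boar liver (2.003 to 2.33). The reads of both arms together differed less: 1103 CPM in Large White, 725 CPM in Enshi black and 652 CPM in wild boar liver. On library totals the 2 arms together were 1.02-fold as high in Enshi black as in Large White liver (0.987 to 1.06) and 0.825-fold in wild boar (0.796 to 0.856).

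Opposite arms past 2-fold were looked for only among precursors with both arms above a mean of 10 CPM. This left out miR-374b, whose ratio of 5p to 3p reads differed more than that of miR-542. Its log2 differences were 3.87 in wild boar over Large White and −2.28 in Enshi black over wild boar. Those of miR-542 were 2.61 and −1.11. Among the 38 precursors with both arms above a mean of 10 CPM, miR-542 in wild boar over Large White was the 1 case in which both arms were past 2-fold in opposite directions, under each of 4 scalings. None of the 38 did so in the other pairs. Across the 33 other precursors, the log2 ratios of the 5p and 3p arms had a Pearson r of 0.70 in Enshi black over Large White, 0.75 in wild boar over Large White and 0.69 in Enshi black over wild boar. These are correlations across precursors, whose ratios share the same libraries and scaling, and are given as a description.

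**Figure D2:**
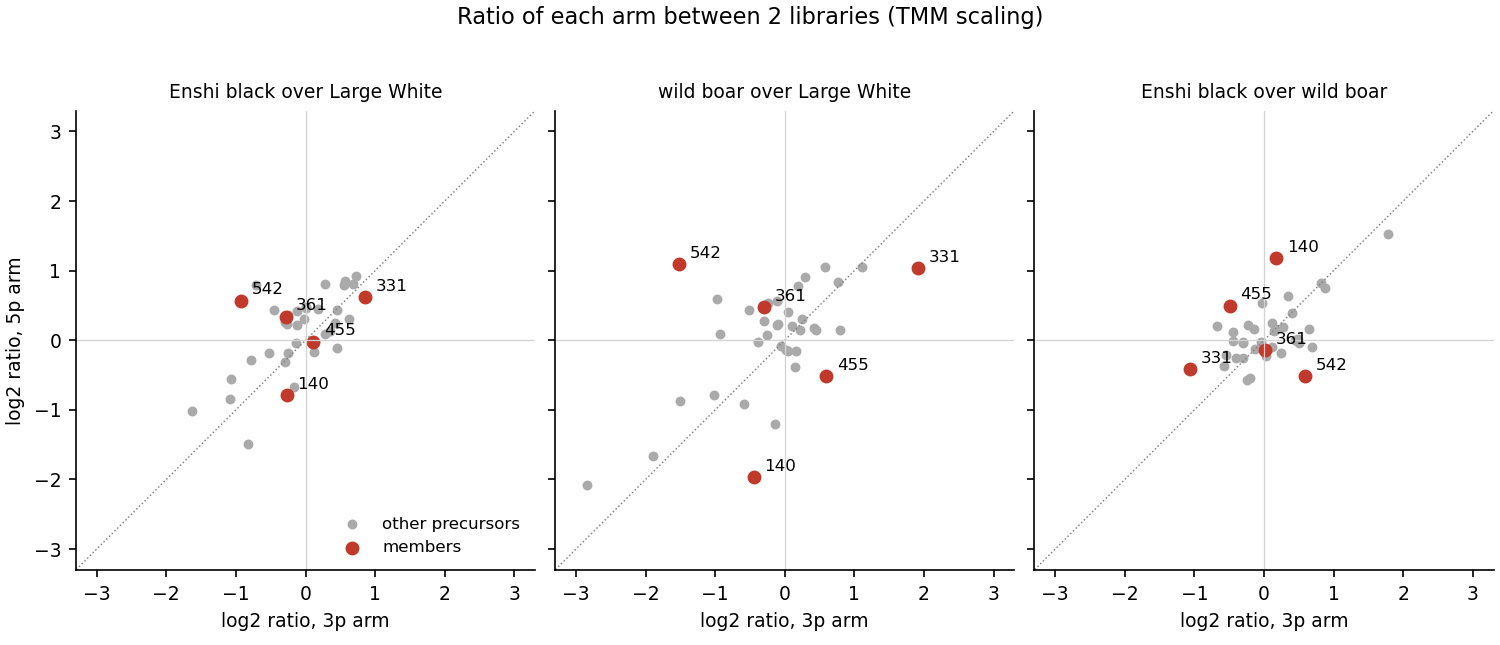
Each point is a precursor, placed by the log2 ratio of its 3p arm (horizontal) and its 5p arm (vertical) between the libraries named above each panel, after TMM scaling; the dotted diagonal marks equal change of both arms. miR-542 lies far above the diagonal in wild boar over Large White, at −1.52 for the 3p and 1.09 for the 5p arm, and miR-140 far below it, at −0.44 and −1.97.

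The genomic neighbours of miR-542 were described by a list of cluster miRNAs. In the RefSeq gene table for assembly Sscrofa11.1, MIR542 is followed on 1 side by MIR450C, MIR450A and MIR450B and on the other by the protein-coding gene PLAC1. Of the 10 cluster miRNAs in the list (both arms of miR-424, miR-542, miR-450b and miR-450c, plus miR-503 and miR-450a), 7 had a mean of at least 10 CPM. After TMM scaling, miR-542-5p was the 1 of those 7 at least 2-fold higher in wild boar over Large White. The 1 at least 2-fold lower was miR-542-3p, and none was past 2-fold in the other pairs. On library totals, miR-542-5p was also 2.31-fold higher in Enshi black than in Large White liver. miR-424-5p, a regulator of the cell cycle and the most abundant of the cluster, stood at 3055 CPM in Enshi black, 3050 CPM in Large White and 2822 CPM in wild boar liver. miR-503, of the same seed family, had 29.5, 33.1 and 30.1 CPM in that order. miR-450b-5p had 75.6, 118 and 81.8 CPM. The minor arm miR-424-3p was under the minimum, on 86, 30 and 96 reads in Enshi black, Large White and wild boar liver. It was 2.15-fold higher in wild boar than in Large White liver (1.42 to 3.36). The 5p to 3p ratio of miR-424 was accordingly 2.33-fold lower there (1.53 to 3.63), the reverse of miR-542, although its 5p share was 99.6% to 99.8% in all 3 libraries.

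miR-140 is processed from within WWP2, and both of its arms are best known from cartilage, where the 5p arm represses the aggrecan-cleaving protease ADAMTS5. It was the most abundant member. Its 5p share was 16.8% in Large White liver (16.3 to 17.2), 12.3% in Enshi black (12.0 to 12.6) and 6.53% in wild boar (6.26 to 6.82). Put the other way, there were 4.97 reads of the 3p arm for each 5p read in Large White, 7.13 in Enshi black and 14.3 in wild boar liver. None of the 3 intervals overlapped, on 29658 to 39392 reads of both arms per library.

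In both pairs with wild boar liver, the miR-140 difference lay mostly in the 5p arm. miR-140-5p stood at 900 CPM in Large White, 522 CPM in Enshi black and 230 CPM in wild boar liver, and miR-140-3p at 4470, 3719 and 3288 CPM. The 5p arm was 3.91-fold lower in wild boar than in Large White liver (3.71 to 4.13) and the 3p arm 1.36-fold lower (1.34 to 1.38). Between the Enshi black and wild boar libraries, the 5p arm was 2.27-fold higher in Enshi black (2.15 to 2.39), against 1.13-fold for the 3p arm (1.11 to 1.15). The 5p arm was lower in wild boar than in Large White liver under each of 4 scalings, with log2 ratios from −1.97 to −1.49. The 3p arm ran from −0.44 to 0.04 there, so its direction depended on the scaling. For Enshi black over Large White, the arm that moved depended on it too. There the 5p arm was 1.72-fold lower and the 3p arm 1.20-fold lower after TMM scaling, while on library totals the 5p arm was 1.11-fold lower and the 3p arm 1.29-fold higher. On totals without miR-122, the log2 ratios of that pair were −0.32 for the 5p and 0.21 for the 3p arm. The 5p to 3p ratio was 2.88-fold lower in wild boar than in Large White liver (2.72 to 3.04), and 2.01-fold higher in Enshi black than in wild boar liver (1.90 to 2.12).

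miR-455 is processed from within the collagen gene COL27A1 and, with miR-140, is known from cartilage. Its 5p share was 33.2% in Large White liver (29.9 to 36.6), 31.2% in Enshi black (28.7 to 33.7) and 18.6% in wild boar (16.7 to 20.7). The Enshi black and Large White intervals overlapped, and the wild boar interval lay below both. The 5p arm had 45.8 CPM in Large White, 45.2 CPM in Enshi black and 32.03 CPM in wild boar liver, and the 3p arm 92.4, 99.8 and 140 CPM. After TMM scaling, wild boar liver thus had the lowest 5p and the highest 3p level, and neither arm was 2-fold apart in any pair.

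The miR-455 ratio of 5p to 3p reads was 2.17-fold lower in wild boar than in Large White liver (1.77 to 2.66). It was 1.98-fold higher in Enshi black than in wild boar liver (1.65 to 2.37), and 1.10-fold lower in Enshi black than in Large White (0.903 to 1.33). Which arm carried the wild boar difference depended on the scaling. In wild boar over Large White the 5p and 3p arms had log2 ratios of −0.52 and 0.60 after TMM scaling, and of −0.04 and 1.08 on library totals, where the 3p arm was past 2-fold.

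miR-331, whose 3p arm is known for repressing the growth factor receptor ERBB2, lies within the span of VEZT in the RefSeq table. It was the only member with both arms higher in wild boar and in Enshi black than in Large White liver under each of 4 scalings. The trait was not particular to miR-331. After TMM scaling, several of the 33 other precursors with both arms above a mean of 10 CPM shared it. miR-331-3p stood at 82.3 CPM in Large White, 149 CPM in Enshi black and 311 CPM in wild boar liver. miR-331-5p stood at 34.0, 52.3 and 70.0 CPM in the same order. The arms shared that order, and the 3p arm had the wider spread.

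In wild boar over Large White, miR-331-3p was 3.78-fold higher (3.42 to 4.18) and miR-331-5p 2.06-fold (1.75 to 2.43). The 5p share was accordingly 29.2% in Large White liver (25.8 to 32.9), 26.0% in Enshi black (24.0 to 28.0) and 18.4% in wild boar (17.0 to 19.7). The first 2 intervals overlapped and the wild boar interval lay below both. The Large White share rests on 193 reads of the 5p and 467 of the 3p arm, the fewest of any member. The ratio of the arms was 1.84-fold lower in wild boar than in Large White liver (1.51 to 2.23), and both arms together were 3.28-fold higher (3.01 to 3.57).

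miR-361 is processed from within CHM on the X chromosome, and its 5p arm has been linked to repression of the vascular growth factor VEGFA. After TMM scaling its level stood at 899 CPM of both arms in Large White, 964 CPM in Enshi black and 1024 CPM in wild boar liver. On library totals both arms together were 1.67-fold higher in Enshi black (1.61 to 1.73) and 1.59-fold higher in wild boar (1.53 to 1.65) than in Large White liver. Its 5p share was 56.3% in Large White liver (54.9 to 57.7), 66.6% in Enshi black (65.6 to 67.5) and 68.9% in wild boar (67.9 to 69.8). Large White liver stood apart from the other two, whose intervals lay close to each other without overlapping.

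miR-361-5p had 507 CPM in Large White, 642 CPM in Enshi black and 706 CPM in wild boar liver, and miR-361-3p had 393, 322 and 319 CPM. Neither arm was 2-fold apart in any pair under any of 4 scalings. The 5p arm was higher than in Large White liver under each scaling, with log2 ratios of 0.34 to 0.98 in Enshi black and 0.48 to 0.96 in wild boar liver. The 3p arm ran from −0.29 to 0.35 and from −0.30 to 0.18, so its direction depended on the scaling. The ratio of 5p to 3p reads was 1.54-fold higher in Enshi black (1.44 to 1.66) and 1.72-fold higher in wild boar liver (1.60 to 1.84) than in Large White.

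**Figure D3:**
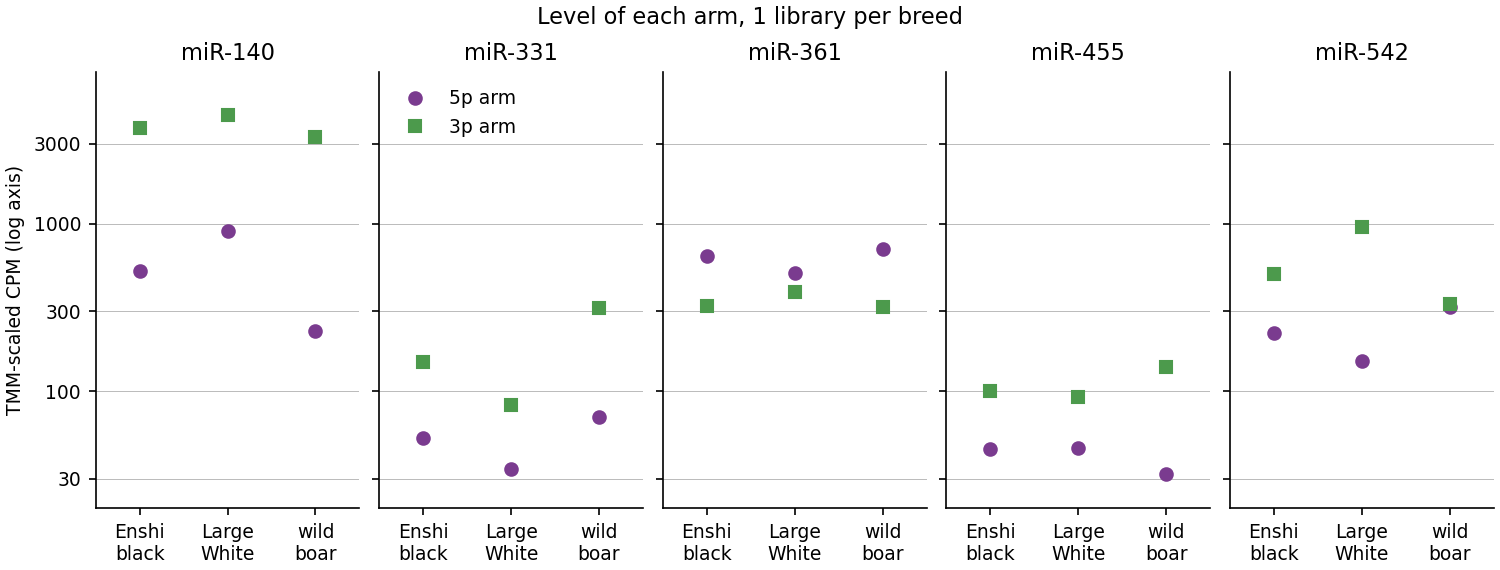
TMM-scaled CPM of the 5p arm (circles) and the 3p arm (squares) of each member are plotted on a log axis, with 1 point per library. The arms of miR-542 meet in wild boar liver at 320 and 333 CPM, and for miR-140 the 5p arm spreads from 230 to 900 CPM under a 3p arm of 3288 to 4470 CPM.

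All 10 arms had a mean of at least 10 CPM, and none held reads shared with another name. A 2-fold or larger ratio whose interval excluded 1 counted an arm as higher or lower. In wild boar over Large White, 3 of the 10 were higher (both arms of miR-331 and miR-542-5p) and 2 lower (miR-140-5p and miR-542-3p), where 11.5% of all 208 miRNAs above that mean were higher and 13.5% lower. For Enshi black over Large White, no arm was past 2-fold in either direction (2.88% and 10.1% of all miRNAs). For Enshi black over wild boar, 1 was higher, miR-140-5p, and 1 lower, miR-331-3p, beside 6.25% of all miRNAs in each direction. The members' median log2 ratios were 0.09, 0.05 and −0.06 in these 3 pairs, beside −0.02, −0.04 and −0.01 over all 208.

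Scaling moved these counts, because it shifts both arms of every precursor alike. On library totals the median of all 208 log2 ratios was 0.60 in Enshi black over Large White, 0.46 in wild boar over Large White and 0.15 in Enshi black over wild boar. There 3 of the 10 arms were at least 2-fold higher in Enshi black over Large White, namely both arms of miR-331 and miR-542-5p, beside 27.4% of all miRNAs. Wild boar over Large White had 4 higher, with miR-455-3p added, and 2 lower, beside 21.6% and 9.13%. In Enshi black over wild boar 1 was higher and 0 lower, beside 7.21% and 3.37%.

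**Figure D4:**
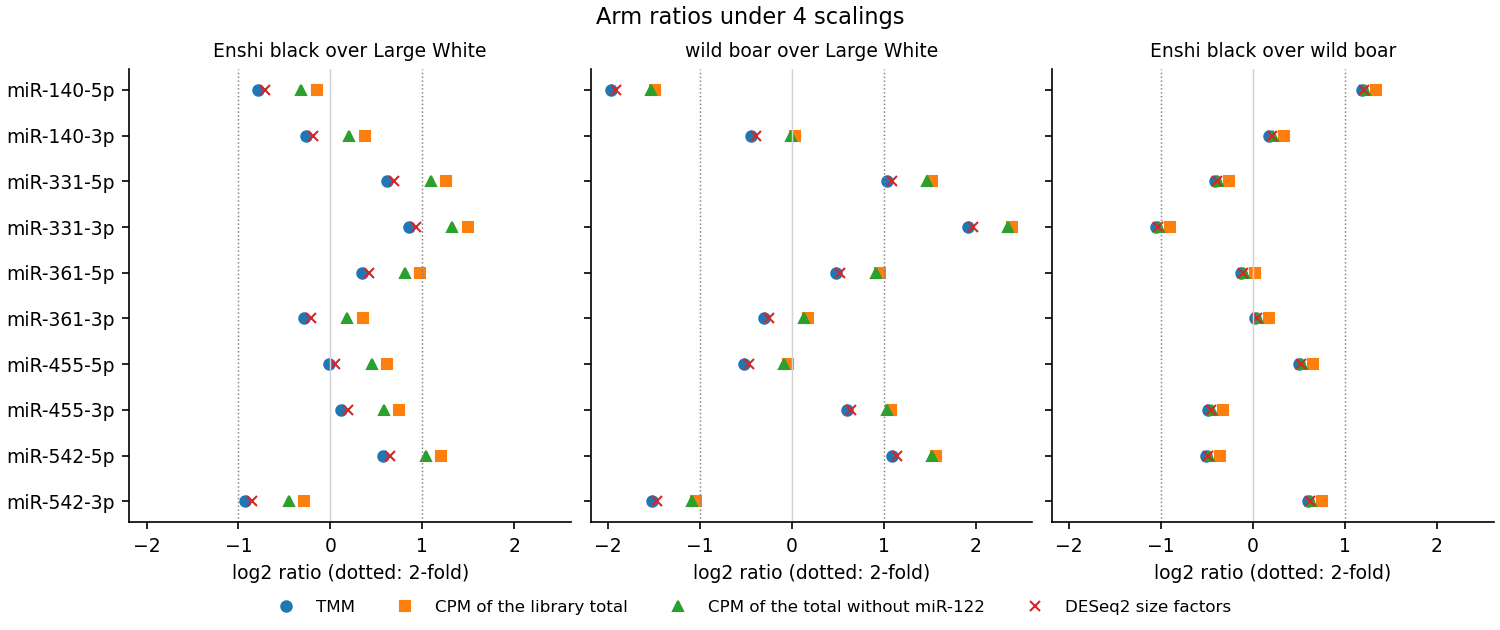
The log2 ratio of each member arm (horizontal axis, dotted lines at 2-fold) is plotted for the 3 pairs of libraries under 4 scalings. Symbols of an arm shift together and keep the distance between its 5p and 3p rows, while miR-140-3p in wild boar over Large White crosses 0, from −0.44 to 0.04.

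Of 81 pairs of 5p and 3p names on a shared precursor, 62 had no fewer than 100 reads over the 2 arms in any library, and the members were taken from the wide end of their range of 5p share over the 3 libraries. The range was 35.4 percentage points for miR-542, 14.5 for miR-455, 12.5 for miR-361, 10.9 for miR-331 and 10.22 for miR-140. These are places 1, 3, 4, 7 and 9 of the 62, beside a median range of 1.66 points over the 57 others. With a minimum of 1000 reads, which leaves 38 precursors and neither miR-331 nor miR-455, miR-542 took place 1, miR-361 place 2 and miR-140 place 3. Of the 57, 4 had a wider range than miR-140: miR-374b at 15.3 points, miR-296 at 11.7, miR-885 at 11.5 and miR-1306 at 10.3. The next below miR-140 were miR-345 at 9.56, miR-374a at 9.36, miR-671 at 9.13, miR-17 at 8.38 and miR-193a at 8.04 points. miR-885 was the 1 precursor of the 62 whose major arm differed between libraries, with a 5p share of 46.3% in Enshi black, 57.8% in Large White and 52.2% in wild boar liver.

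**Figure D5:**
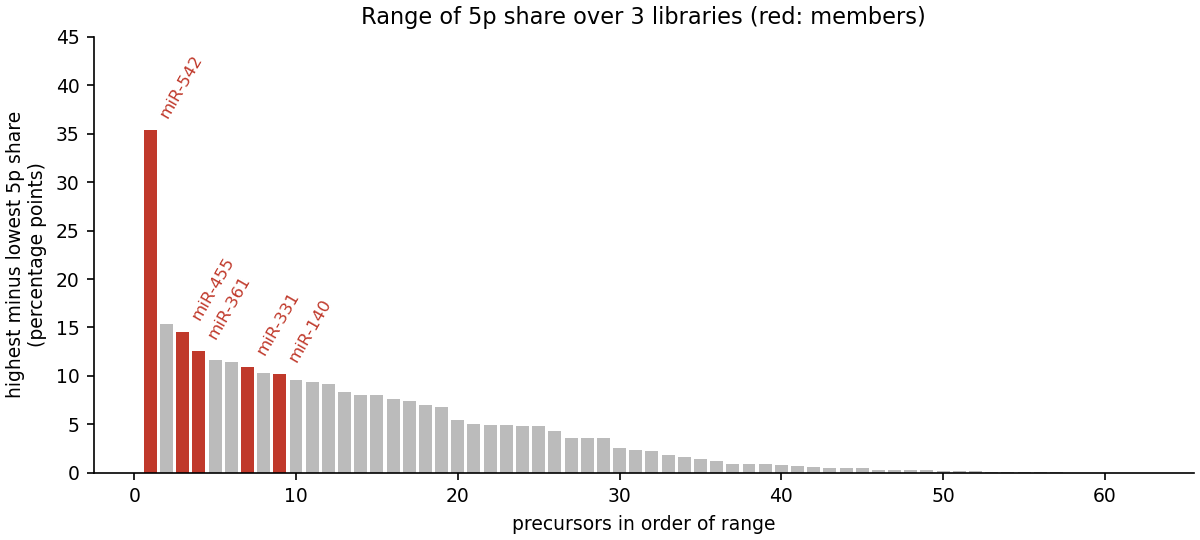
Bars give the highest minus the lowest 5p share over the 3 libraries, in percentage points, for the 62 precursors in falling order, with the members in red. miR-542 stands at 35.4 points, and the other 4 members, at 10.22 to 14.5, lie among grey bars of like height.

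A range in points is widest for precursors with balanced arms, and the fold difference of the arm ratio gave another order. In wild boar over Large White, the ratio of 5p to 3p was at least 2-fold higher for 1 of the 5 members, miR-542, beside 9.68% of the 62 precursors, and at least 2-fold lower for 2, miR-140 and miR-455, beside 11.3%. For Enshi black over Large White, 1 member was higher, miR-542, and none lower, beside 8.06% and 0.0%. In Enshi black over wild boar 1 was higher, miR-140, and 1 lower, miR-542, beside 8.06% and 4.84%. The members are part of these 62 and were chosen from the same libraries, so nothing is read from their counts. By the size of this difference in wild boar over Large White, miR-542 took place 2, miR-140 place 6, miR-455 place 12, miR-331 place 17 and miR-361 place 19. In that pair miR-374b came before miR-542, with a log2 difference of 3.87 against 2.61. In Enshi black over Large White, miR-542 took place 4, miR-361 place 17, miR-140 place 24, miR-331 place 46 and miR-455 place 52.

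For each member, the other precursor with the most similar pattern was the nearest by Euclidean distance in the log2 differences of the arm ratio, Enshi black over Large White and wild boar over Large White, among 51 candidates. miR-361, with 0.63 and 0.78, was nearest to the leucocyte miR-142, with 0.51 and 0.77. miR-140, with −0.52 and −1.53, was nearest to miR-664, with −0.36 and −1.45. miR-331, with −0.24 and −0.88, lay nearest to miR-27b, with −0.22 and −0.65, and miR-455, with −0.13 and −1.12, to miR-30e, with −0.50 and −1.08. miR-542, with 1.497 and 2.61, lay nearest to the muscle miR-499, with 1.75 and 2.29. These likenesses rest on 3 libraries. Some of the nearest precursors also had wide intervals in wild boar over Large White. These were 1.12 to 3.69 for miR-499, −2.59 to −0.42 for miR-664 and −1.12 to −0.16 for miR-27b.

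By RefSeq, 4 of the 5 lie within the span of a protein-coding gene, as do 30 of the 55 other precursors that could be matched (54.5%). The table used gives no strand, and its assembly is not the build of the counts, so it served for neighbours alone. Over the 57 other precursors, 24 had the lowest 5p share in Large White, 19 in wild boar and 14 in Enshi black liver. The Enshi black count includes tied precursors, whose 5p share was 100% or 0% in every library.

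Sums of markers of other cell types also differed between the libraries after TMM scaling. They were not computed under the other scalings, which could change their order. The 5 leucocyte markers found of 6 listed, led by miR-142-3p, summed to 20806 CPM in Large White, 10877 in Enshi black and 3651 in wild boar liver. After TMM scaling, miR-140-5p, miR-140-3p, miR-361-3p, miR-455-5p and miR-542-3p also fell from Large White over Enshi black to wild boar liver. The other member arms rose. On library totals, however, Enshi black was above Large White liver for miR-140-3p, miR-361-3p and miR-455-5p, at log2 ratios of 0.37, 0.35 and 0.62. In Large White, Enshi black and wild boar liver, the 3 red cell markers summed to 5324, 4114 and 3114 CPM. The 6 striated muscle markers summed to 395, 230 and 176 CPM in that order, with miR-208b at 0 reads in at least 1 library. The 4 smooth muscle and stellate cell markers had 31563, 42462 and 34011 CPM, the 2 endothelial ones 10080, 16284 and 12169 CPM, and the 3 neural ones 642, 347 and 264 CPM, with miR-124a at 0 in at least 1 library. In tissue RNA, fewer cells of a type and less RNA per cell cannot be told apart. The part of cell composition in the arm balance was not tested.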

How the data were processed

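Per the labels' protocols, total RNA was extracted with TRIzol, and size-selected small RNA was ligated, amplified and sequenced on an Illumina HiSeq as single-end reads of 50 bases. Per the submitters' processing notes, the genome build was Sscrofa 10.2. Not given in the sources used here are the aligner, the counter and the miRNA annotation. Per the file headers, the deposited values are the authors' expected counts, reads per pair of mature miRNA and precursor, in 486 rows. They are whole numbers in 75.7% to 78.8% of rows and hold fractions where reads were divided between rows. The authors also deposited RPM (reads per 1000000 of the library's sum), used here only to recompute the shares. The files hold reads per name, so variants of a mature miRNA with other ends were not told apart, and a share of reads need not equal a share of molecules.

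Counts were summed per name and rounded to whole numbers, as the plan had assumed whole counts. Rows of 6 names repeated another name's reads and were left out of totals, leaving 405. CPM were scaled by TMM factors (edgeR 4.0.16, R 4.3.3) of 0.772 (Large White), 1.08 (wild boar) and 1.20 (Enshi black). Comparisons used the 208 names with a mean of at least 10 CPM of the library total. Ratios between libraries have exact conditional-binomial 95% intervals, 5p shares exact Clopper-Pearson intervals and arm ratios exact conditional odds-ratio intervals (scipy 1.17.1). All cover counting error only, since reads carry no molecular identifiers and 1 library per breed gives no spread between animals. No p-value was computed. The interval rules were tried on simulated counts that varied by counting error alone, which cannot show how they behave with variation between animals or libraries. The alternatives were 3 other scalings (library totals, totals without miR-122, DESeq2 1.42.0 size factors), other thresholds and filters, thinned libraries and a pseudocount. Named miRNAs were the members, the 5 precursors next below them in range, the nearest precursor to each member, the miR-542 cluster and the cell type markers. The 4 wider precursors were named after their values were seen. Members, lists and rules were chosen with earlier results of these data known. Sequences and base composition were not analysed here.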

Additional observations from a re-analysis of the deposited data

How the results depend on the processing

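All 15 5p shares stayed within their counting intervals with unrounded counts, with libraries thinned to the smallest total, with RPM as deposited and with rows of the shared precursor alone, and so did all 15 differences in arm ratio with 0.5 counts added to each arm. Of these changes, only thinning could have moved the shares by more than rounding. The 10 arms held no shared reads and stood in 10 rows, and RPM scales both arms of a library alike. The 0.5 counts were small beside the smallest arm count of 193. The counts of arms past 2-fold depended on scaling and threshold. In Enshi black over Large White, 0 arms higher became 3 on library totals and 3 on totals without miR-122, and at 1.5-fold there were 2 higher and 2 lower. In Enshi black over wild boar, the 1 arm lower became 0 on library totals, and at 1.5-fold 2 arms were higher. At 4-fold, 0 arms were left in either direction in wild boar over Large White and in Enshi black over wild boar. DESeq2 size factors, no expression filter and a minimum of 100 CPM, which keeps 8 of the 10 arms, left each count within 1.5 times its value. Among the 62 precursors, an arm ratio at least 1.5-fold higher was found for 9 in Enshi black over Large White (5 at 2-fold), 14 in wild boar over Large White (6 at 2-fold) and 8 in Enshi black over wild boar (5 at 2-fold), and 3 were lower in the first pair (0 at 2-fold). With at least 1000 reads, which leaves 38 precursors, 4 were lower in wild boar over Large White in place of 7 and 3 higher in Enshi black over wild boar in place of 5. Without arms that hold shared reads, which leaves 40 precursors, 3 were higher in each of the first 2 pairs and 1 lower in Enshi black over wild boar in place of 3. Fewer precursors were tested in those cases. No arm past 2-fold after TMM scaling changed its direction under the other scalings. Leaving out a replicate was not possible with 1 library per breed, and the sequence comparison that had been planned was not run.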
